A study of Mus musculus with 4 samples.

Results

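The genes described here are 45 genes of the sarcomere and of muscle contraction, followed in the muscle cells of the embryonic mouse hindlimb at 4 stages. They are a fixed list among the 33456 genes of the count tables. The list was not chosen by a threshold on these values, but earlier results of these data were known when it was chosen. By role, 15 belong to the thin filament, 14 to the thick filament, 8 to the Z-disc and M-band, 6 to calcium handling and energy supply, and 2 to the acetylcholine receptor. Muscle cells were found by rule. Myog-high cells had 5 or more unique molecular identifiers (UMIs, each a captured transcript) of Myog, the myogenin gene, which is switched on as myoblasts differentiate. Other muscle cells had fewer and at least 2 UMIs summed over Pax7, Myf5, Myod1 and Msc, which mark muscle progenitors and myoblasts. Cells meeting neither rule are called outside muscle. Msc is not restricted to muscle, and the other muscle cells that also reached 2 UMIs without it were 4 of 10, 26 of 34, 47 of 59 and 121 of 198 in stage order.

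The samples were C57BL/6 hindlimb cells at embryonic days 11.5, 13.5, 15.5 and 18.5, profiled by droplet single-cell RNA sequencing of transcript 3′ ends, with no genotype or treatment contrast. Each stage was 1 library of cells pooled from several pups of a single litter, digested with collagenase and pronase, strained, frozen, thawed and cleared of dead cells. Multinucleated fibres are not single cells, and how much of the fibre compartment entered the droplets was not measured. Since each stage is a single library, no difference has a replicate check and none was tested. Each difference compares these libraries, and fewer cells of a type and less RNA per cell cannot be told apart in a summed level.

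Skeletal muscle contracts when myosin heads of the thick filament pull on actin of the thin filament. Troponin and tropomyosin gate this by calcium, which is released through the ryanodine receptor and taken back by a calcium pump. Most of these proteins come as families of genes, with isoforms named for heart, slow muscle, fast muscle or the embryo, and limb muscle is known to use embryonic and heart-named isoforms before it settles on adult fast and slow ones. In the fetus the acetylcholine receptor, through which nerves trigger contraction, carries a gamma subunit that is later replaced.

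Promoter sequences are shown for 4 members that the results below turn on. These are the 2 striated-muscle alpha-actins, Actc1 and Acta1, together with Tnnt2 and Tnnc1, a troponin T and a troponin C named for the heart. RefSeq promoter tables matched 38 of the 45 genes, with 47 start sites. Each sequence below is the 250 bases before a start site, read 5′ to 3′ on the gene's strand, in GRCm38. Capitals mark the E-box (CANNTG, the site bound by Myog and related factors, which reads the same on both strands), the CArG box (the site of serum response factor, searched on both strands) and the TATA box (TATAAA, gene strand only). None of the marked motifs overlap. Actc1 lies on chromosome 2, Acta1 on chromosome 8, Tnnt2 on chromosome 1 (its more upstream start) and Tnnc1 on chromosome 14.
Actc1 (chr2:114052876-114053125, minus strand): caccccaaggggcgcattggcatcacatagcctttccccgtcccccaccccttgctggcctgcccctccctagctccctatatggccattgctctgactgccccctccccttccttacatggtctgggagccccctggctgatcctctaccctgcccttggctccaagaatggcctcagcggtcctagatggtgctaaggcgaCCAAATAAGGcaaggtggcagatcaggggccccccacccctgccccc
Acta1 (chr8:123894776-123895025, minus strand): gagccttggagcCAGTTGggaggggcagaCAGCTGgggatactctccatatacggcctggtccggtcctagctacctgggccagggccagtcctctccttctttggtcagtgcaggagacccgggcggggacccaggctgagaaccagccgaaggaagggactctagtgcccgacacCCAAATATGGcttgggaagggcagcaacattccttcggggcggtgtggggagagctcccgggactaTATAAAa
Tnnt2 (chr1:135836084-135836333, plus strand): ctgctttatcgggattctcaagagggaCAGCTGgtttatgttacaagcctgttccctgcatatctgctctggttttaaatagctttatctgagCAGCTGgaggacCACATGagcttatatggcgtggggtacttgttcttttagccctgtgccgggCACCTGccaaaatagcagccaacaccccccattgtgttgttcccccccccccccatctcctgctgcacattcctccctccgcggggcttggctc
Tnnc1 (chr14:31208062-31208311, plus strand): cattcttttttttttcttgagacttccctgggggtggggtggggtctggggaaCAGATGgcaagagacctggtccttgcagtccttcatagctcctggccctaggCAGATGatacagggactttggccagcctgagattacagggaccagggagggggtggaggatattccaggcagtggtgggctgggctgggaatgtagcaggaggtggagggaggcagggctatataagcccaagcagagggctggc

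The CArG box of Actc1 began 47 bases before the start and that of Acta1 73 bases before it. Acta1 also held 2 E-boxes, Tnnt2 held 4 and Tnnc1 held 2, while the Actc1 window held no CANNTG. Over the members, 8 of 47 windows (17%) held a CArG box, against 482 of all 32851 windows (1.47%). An E-box was in 38 of the 47 (80.9%), against 66.2% of all windows, and a TATA box in 5 (10.6%), against 7.59%. Some windows of a gene overlap and count the same site again, as for the CArG box of Ldb3. By gene, 7 of 38 held a CArG box and 32 of 38 an E-box. Of motifs not in capitals, CATTCC, the MCAT element searched on both strands, was in 13 (27.7%), against 12.6%, and the MEF2 site in 5 (10.6%), against 1.69%. Promoters of Neb, Tnni2, Tnnt3, Myom2, Ryr3, Tcap and Actn3 were not used here. A match is a description of letters only.

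Cells meeting either muscle rule, including those that met it only through Msc, made up 0.608%, 2.52%, 5.13% and 17.3% of the kept cells from E11.5 to E18.5. After removal of barcodes with under 200 genes, with over 10% mitochondrial UMIs or called as doublets by Scrublet, 9929 of 10272 barcodes remained. In the same order, Myog-high cells numbered 6, 37, 74 and 130. Other muscle cells numbered 10, 34, 59 and 198, and cells outside muscle 2614, 2741, 2458 and 1568. The median depth over the stages was 8856 to 18573 UMIs per Myog-high cell, 7890 to 17874 per other muscle cell and 6620 to 10100 per cell outside muscle, lowest at E18.5 in all 3 groups. Libraries shared 8 to 15 cell barcodes per pair, up to 4 of them of muscle cells. Of 8 heart muscle markers, Nppa, Nppb, Nkx2-5 and Myl7 had 0 UMIs in both muscle groups of every library. The other 4 had few: Tnni3, itself a listed gene, had 0, 2, 1 and 1 UMIs in Myog-high cells and 1, 4, 7 and 2 in other muscle cells, and Hand2, also known from limb mesenchyme, had 0, 5, 2 and 0 in Myog-high cells and 1, 1, 6 and 0 in other muscle cells. Myh6 and Gata4 had 1 UMI at most per muscle group and stage. All 8 together were at 0.828 to 10.5 CPM (UMIs per 1000000) in Myog-high cells and 1.83 to 12.3 CPM in other muscle cells. Markers of other tissues did occur in muscle cells. The summed chondrocyte markers Col2a1, Acan, Matn1, Col9a1 and Epyc were at 856 CPM in Myog-high cells and 1290 CPM in other muscle cells at E13.5, and at 207 and 201 CPM at E18.5. The fibroblast markers stood at 268 CPM in Myog-high cells and 640 CPM in other muscle cells at E18.5. At least 5 UMIs of them were found in 12 of 130 Myog-high and 92 of 198 other muscle cells at that stage. Of the pericyte and smooth muscle markers, Acta2, which differentiating myoblasts are also known to use, made up 1093 to 2005 CPM at E11.5, E13.5 and E18.5 and 921 CPM at E15.5 in Myog-high cells. In other muscle cells Acta2 was at 11, 635, 249 and 492 CPM from E11.5 to E18.5. The part of these markers in the results was not tested.

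The listed genes without Tpm1, Tpm3 and Des took up a far larger part of Myog-high cells than of the others. Among members with at least 20 UMIs in muscle, Tpm1 and Tpm3 were highest outside it, relative to muscle, at every stage. Des lay under 1% of its muscle level there at E11.5, E13.5 and E15.5. The median share of the remaining genes in a cell's UMIs was 0.769%, 0.825%, 0.985% and 0.633% in Myog-high cells from the first stage to the last. In other muscle cells the medians were 0.075%, 0.0999%, 0.0837% and 0.0716%, and outside muscle 0.00579%, 0.00879%, 0.00996% and 0.0203%. Single Myog-high cells reached 8.71%, 7.0%, 6.27% and 3.48%. A Myog-high cell held UMIs of 22.5, 18, 17 and 11 of the 45 genes at the median, against 6, 7.5, 7 and 6 in other muscle cells.

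Almost all measured members were higher in Myog-high cells than in other muscle cells. A gene entered a comparison with at least 20 UMIs in the 2 groups together. It was called higher or lower when its ratio of CPM, divided by that of the median gene, was at least 2 either way and the whole 95% counting interval lay on the same side of 1. Intervals cover counting error only and treat UMIs as independent. At E13.5, 27 of 30 members measured were higher and 0 lower, where 6.89% of 5503 genes were higher. At E15.5, 26 of 29 were higher and 0 lower, where 7.97% of 7102 genes were higher, and at E18.5, 23 of 27 were higher and 0 lower, where 7.57% of 7506 were. A gene could reach the 20 UMIs through 1 group alone. Of the members measured, 8, 1 and 2 had 0 UMIs in other muscle cells at the 3 stages, and further members had under 20 there. Entry to these counts was therefore not independent of the direction. The background share called lower was 5.2%, 8.8% and 10.6%. Without the cell with the most listed UMIs of each group, an alternative chosen after seeing the data, 27 of 29, 25 of 28 and 21 of 25 were higher and 0 lower, where 6.65%, 7.83% and 7.63% of genes were higher and 5.18%, 8.16% and 10.6% lower. Ryr1 at E13.5, Casq2 at E15.5, and Tnnc1 and Myh3 at E18.5, all higher with every cell, then had under 20 UMIs. By role, 11 of 13 thin filament genes measured were higher at each stage, and 7 of 7, 6 of 7 and 5 of 6 thick filament genes. All 3 calcium and energy genes and both receptor genes measured were higher at each stage, and 4 of 5, 4 of 4 and 2 of 3 Z-disc and M-band genes. Taking genes with 0 UMIs in 1 group at their bound, the median member was 3.80, 4.28 and 3.20 higher on the log2 scale at the 3 stages, against 0.00 for all genes. The median gene of the pair itself lay at −0.06, −0.22 and −0.24 log2 in CPM. The E11.5 group of 6 cells was below the 10 cells set for a comparison, and its values are given as levels only.

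**Figure D1:**
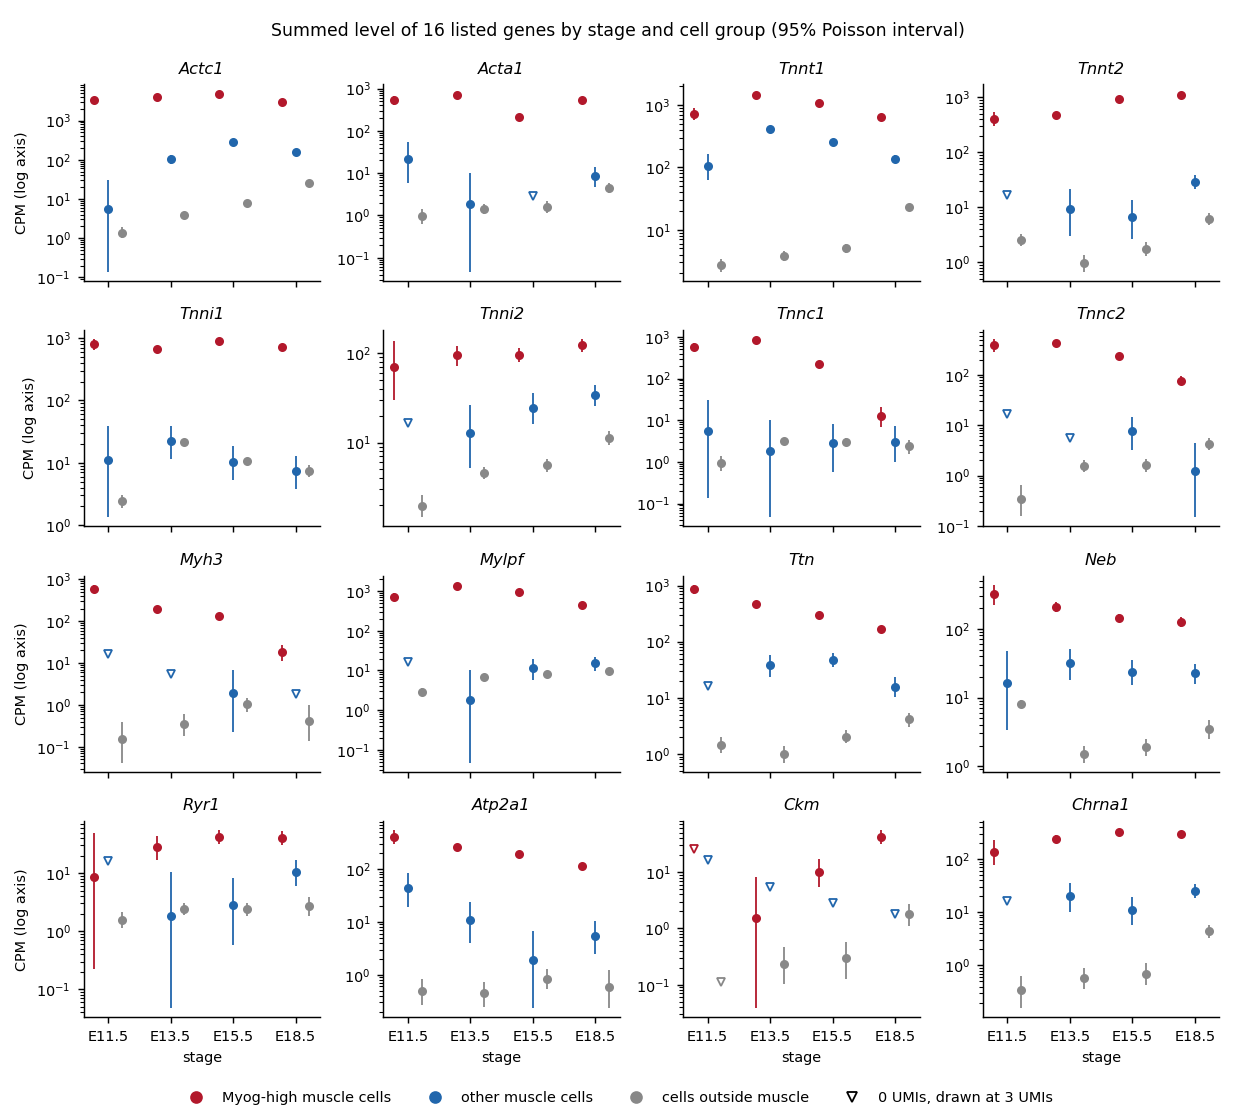
Summed level of 16 members in CPM (log axis) by stage, for Myog-high muscle cells, other muscle cells and cells outside muscle, with 95% Poisson intervals and open triangles at 3 UMIs where none was counted. Actc1 lies between 2935 and 4837 CPM in Myog-high cells, while Tnnc1 ends at 12.4 CPM at E18.5.

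Among thin filament genes, both alpha-actins were far higher in Myog-high cells. Actc1, the alpha-actin of heart and embryonic muscle, was the most abundant member. It stood at 3414, 3942, 4837 and 2935 CPM in Myog-high cells from E11.5 to E18.5. Other muscle cells had 5.48, 105, 288 and 158 CPM, and cells outside muscle 1.39, 3.96, 7.81 and 24.8 CPM. Its ratio in Myog-high over other muscle cells was 39.3 (interval 30.2 to 52), 19.5 (17.4 to 22) and 21.9 (19.3 to 24.9) at the 3 stages compared. Nearly every Myog-high cell held it, 36 of 37, 73 of 74 and 129 of 130 at the last 3 stages. Outside muscle, where the median depth was lower, 4.67%, 8.14% and 8.8% of cells had a UMI of it. Acta1, the alpha-actin of adult skeletal muscle, was at 536, 709, 217 and 530 CPM in Myog-high cells and at 21.9, 1.84, 0 and 8.54 CPM in other muscle cells. Its ratio was 403 at E13.5, with an interval as wide as 72 to 15947 because other muscle cells held 1 UMI, and 73.1 (43.3 to 135) at E18.5. At E15.5 Acta1 had 278 UMIs in Myog-high cells and 0 in other muscle cells, a level at least 88.9-fold higher with 3 UMIs as the floor. A single cell held 232 of the 278, and without the cell with the most listed UMIs of each group the counts were 46 and 0, at least 15.3-fold higher.

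The troponins split into genes present in both muscle groups and genes nearly absent from other muscle cells. Tnnt1, the troponin T of slow muscle, was at 709, 1443, 1067 and 635 CPM in Myog-high cells. Other muscle cells held 104, 408, 252 and 138 CPM, so its ratios were only 3.69, 4.92 and 5.41 from E13.5 on. Tnnt2, troponin T of heart and embryonic muscle, was at 406, 474, 946 and 1117 CPM in Myog-high cells and at 0, 9.2, 6.62 and 28.7 CPM in other muscle cells. The ratio of Tnnt2 was 53.9 (22.9 to 167), 166 (80.5 to 414) and 45.9 (34.3 to 62.8). Tnni1, slow troponin I, was at 795, 681, 917 and 734 CPM in Myog-high cells, against 11, 22.1, 10.4 and 7.32 CPM in other muscle cells. That gave 32.2-fold, 103-fold and 118-fold higher levels. Tnni2, fast troponin I, differed less, at 69.1, 94.3, 96 and 123 CPM in Myog-high cells and 0, 12.9, 24.6 and 34.2 CPM in other muscle cells (7.65-fold, 4.54-fold and 4.23-fold higher). Tnnc1, troponin C of slow and heart muscle, was at 579, 825, 229 and 12.4 CPM in Myog-high cells, against 5.48, 1.84, 2.84 and 3.05 CPM. Tnnc2, the fast troponin C, stood at 389, 429, 240 and 77 CPM in Myog-high cells, against 0, 0, 7.56 and 1.22 CPM. Fast troponin T, Tnnt3, was low in both groups, at 69.1, 79.3, 37.4 and 29 CPM in Myog-high cells and 5.48, 0, 2.84 and 4.88 CPM in other muscle cells, and was called higher at all 3 stages. Without the cell with the most listed UMIs of each group, described below, the E15.5 ratios were 31.7 instead of 94 for Tnnc1, 10.4 instead of 36.8 for Tnnc2 and 6.33 instead of 15.4 for Tnnt3. Tnni3, the troponin I of heart, had 0 to 2 UMIs per stage in Myog-high cells and 1 to 7 in other muscle cells, too few for a comparison.

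Of the tropomyosins, which lie along actin, Tpm2 was called and the other 2 were not. Tpm1 was not called at any stage, with ratios of 1.14, 1.32 and 1.2, and Tpm3 was not called at 0.72 (0.537 to 0.965), 0.637 (0.514 to 0.787) and 0.577 (0.46 to 0.721), intervals that lie below 1. Tpm2 was called at each stage: 1467, 1556 and 1315 CPM in Myog-high cells, against 329, 249 and 340 CPM in other muscle cells (4.65-fold, 7.28-fold and 4.56-fold higher). Neb, the giant ruler protein nebulin, was 7-fold, 7.06-fold and 6.53-fold higher. Its relative Nebl, known from heart muscle, had 4 UMIs or fewer in Myog-high cells of any stage.

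Thick filament genes were often at 0 to 2 UMIs in other muscle cells. Mylpf, the regulatory light chain of fast muscle, was at 717, 1383, 938 and 440 CPM in Myog-high cells and at 0, 1.84, 11.3 and 15.2 CPM in other muscle cells. Its E15.5 level was 96.1-fold (54.8 to 187) higher, and its E18.5 level 34-fold (22.8 to 53) higher. Myl1, the fast alkali light chain, was at 1106, 657, 651 and 243 CPM in Myog-high cells and at 27.4, 29.4, 3.78 and 5.49 CPM in other muscle cells. Myl4, the alkali light chain of embryonic muscle and atria, was at 181, 543, 332 and 71.2 CPM in Myog-high cells, against 0, 9.2, 19.8 and 9.15 CPM. Myh3, the embryonic myosin heavy chain, was at 596, 198, 132 and 18.2 CPM in Myog-high cells and had 0, 0, 2 and 0 UMIs in other muscle cells. Myh8, the perinatal heavy chain, was at 8.64, 50.9, 46 and 27.3 CPM in Myog-high cells, against 0, 0, 12.3 and 1.83 CPM. Mybph, a myosin-binding protein, had 120 UMIs in Myog-high cells and 0 in other muscle cells at E13.5, and 127 and 1 at E15.5. Without the cell with the most listed UMIs of each group, the E15.5 ratios were 58.7 instead of 96.1 for Mylpf, 33.5 instead of 81.1 for Myh3, 24 instead of 122 for Mybph and 2.15 instead of 4.36 for Myh8, all still called. Mybpc1, the slow myosin-binding protein C, took another course. It was 3.72-fold higher in Myog-high cells at E13.5, but its E15.5 ratio of 1.07 (0.608 to 1.89) and its E18.5 ratio of 0.533 (0.34 to 0.814) were not called. At E18.5 Mybpc1 stood at 24.9 CPM in Myog-high cells and 54.9 CPM in other muscle cells.

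Several thick filament genes were close to absent. Myh2 had 0 UMIs in both muscle groups, Myh4 had 1 in all, and Myh6, the heart alpha heavy chain, 1 at most in either muscle group of a stage. Myl2 and Myl3, light chains of slow muscle and ventricle, had 3 UMIs or fewer per stage in Myog-high cells. Myh7, the slow and heart beta heavy chain, had 5, 15, 5 and 1 UMIs in Myog-high cells. Myh1, a fast adult heavy chain, had 13 UMIs in 7 of 37 Myog-high cells at E13.5 and 0 in both muscle groups of the other 3 libraries. Outside muscle, Myh1 had 1 UMI at E13.5. Myh1, Myh2, Myh3, Myh4 and Myh8 lie side by side on chromosome 11 and are alike in sequence. The sources used here do not say how reads matching several copies were counted, so UMIs of these genes are uncertain between copies.

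In the Z-disc and M-band, Ttn, the titin spring that runs from Z-disc to M-band, was 12.9-fold, 7.41-fold and 12.2-fold higher in Myog-high cells. It was at 856, 477, 301 and 165 CPM there and at 0, 38.6, 47.3 and 15.9 CPM in other muscle cells. Actn2, the alpha-actinin of all striated muscle, was at 302, 190, 105 and 38.9 CPM in Myog-high cells, against 5.48, 0, 0.945 and 5.49 CPM. The fast-fibre alpha-actinin Actn3 was less selective, at 147, 83.8, 35.9 and 3.31 CPM in Myog-high cells, against 16.4, 51.5, 15.1 and 1.83 CPM. Its ratio of 1.7 at E13.5 was not called, and that of 2.76 at E15.5 was. Without the cell with the most listed UMIs of each group Actn3 was called at E13.5 (2.11), and the E15.5 ratio of Actn2 was 32 instead of 129. Des, the intermediate filament desmin, was 3.69-fold and 2.55-fold higher at E13.5 and E15.5, while its E18.5 ratio of 1.52 was not called. Tcap, the titin cap, had 1, 32, 4 and 0 UMIs in Myog-high cells, with 19 of the 32 in a single cell, and 0 in other muscle cells. Ldb3, Myom1 and Myom2 had 10 UMIs or fewer per stage in Myog-high cells.

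Of the calcium and energy genes, Atp2a1, the fast calcium pump, was at 415, 260, 193 and 113 CPM in Myog-high cells and 43.9, 11, 1.89 and 5.49 CPM in other muscle cells. It was 24.7-fold, 119-fold and 24.2-fold higher. Ryr1, the skeletal calcium release channel, was 16.2-fold, 17.3-fold and 4.61-fold higher, at 28.4, 42.1 and 40.6 CPM in Myog-high cells against 1.84, 2.84 and 10.4 CPM. Casq2, the calcium store protein best known from heart, was higher at E13.5 and E15.5, with 44 and 38 UMIs in Myog-high cells against 0 and 1. Ckm, muscle creatine kinase, had 0, 1, 13 and 51 UMIs in Myog-high cells and 0 in other muscle cells throughout, and was at least 27.2-fold higher at E18.5. Cacna1s, the voltage sensor of the muscle membrane, had 7 UMIs at most, all 7 in 1 cell, and Ryr3 had 1. Both acetylcholine receptor genes were called at each stage. The alpha subunit Chrna1 was at 138, 245, 321 and 303 CPM in Myog-high cells and 0, 20.2, 11.3 and 25.6 CPM in other muscle cells (12.7-fold, 32.9-fold and 13.9-fold higher). The fetal gamma subunit Chrng was 4.06-fold, 10.6-fold and 5.42-fold higher.

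**Figure D2:**
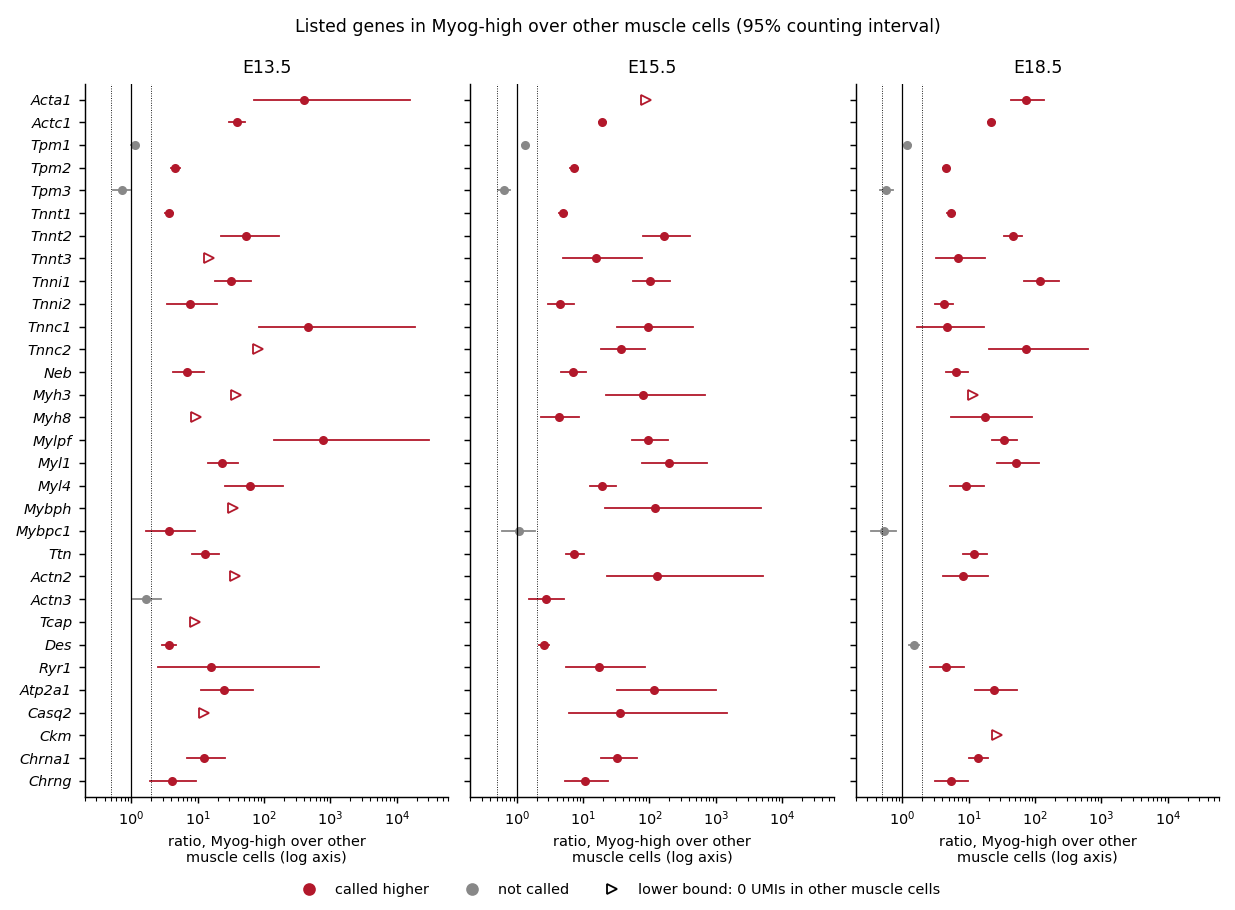
Ratio of each measured member in Myog-high over other muscle cells (log axis, relative to the median gene) at E13.5, E15.5 and E18.5, with 95% counting intervals, lower bounds as open triangles, and dotted lines at 0.5 and 2. Tpm1 lies at 1.14 to 1.32 and Tpm3 between 0.577 and 0.72, with 27, 26 and 23 other members to the right of 2.

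Within gene families, Myog-high cells used slow, heart-named, embryonic and fast isoforms side by side, and the mix differed between families and stages. The regulatory light chain was nearly all the fast Mylpf, at 100%, 100%, 99.9% and 99.6% of its UMIs from E11.5 to E18.5. UMIs of 3′ ends are not divided by gene length, and 3′ ends of different genes may be captured unequally, so these shares compare UMIs and not proteins. Actc1 made up 86.4%, 84.7%, 95.7% and 84.7% of alpha-actin UMIs from E11.5 to E18.5. Every Myog-high cell with Acta1 also held Actc1, in 12 of 37, 20 of 74 and 61 of 130 cells at the last 3 stages.

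Troponin T was divided between a slow and a heart-named isoform. Tnnt1 held 59.9%, 72.3%, 52% and 35.7% of the troponin T UMIs. Tnnt2 held 34.3%, 23.8%, 46.1% and 62.7%, so it was the larger at E18.5 only. At E11.5, 1 of 6 cells held most Tnnt2 UMIs, and without it Tnnt2 had 13 of 76 troponin T UMIs (17.1%), below the 24.7% of E13.5 without its top cell. Tnnt3 held 5.84%, 3.97%, 1.83% and 1.63%. The 2 main isoforms mostly shared cells: Tnnt1 and Tnnt2 were found together in 27 of 37, 64 of 74 and 98 of 130 Myog-high cells. Other muscle cells differed, with 95%, 97.8%, 96.4% and 80.5% of troponin T UMIs from Tnnt1.

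Troponin C was mainly the slow and heart isoform at E11.5 and E13.5 and mainly the fast one at E18.5. Tnnc1 made up 59.8%, 65.8% and 48.9% of its UMIs at the first 3 stages and 13.9% (interval 7.99% to 21.9%) at E18.5, the rest being fast Tnnc2. Troponin I was mainly the slow isoform, with Tnni1 at 92%, 87.5%, 90.5% and 85.6% and Tnni2 at 8%, 12.1%, 9.47% and 14.3%. In other muscle cells the small troponin I total was mainly Tnni2 at E18.5, with 56 of 70 UMIs (80%, interval 68.7% to 88.6%).

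Myosin heavy chain was mainly embryonic until E15.5. Myh3 held 90.8%, 67.7%, 72.2% and 39.3% of the family's UMIs, and perinatal Myh8 held 1.32%, 17.4%, 25.2% and 58.9%. The E18.5 shares rest on 56 UMIs, with Myh3 and Myh8 together in 5 of 130 cells, Myh3 alone in 10 and Myh8 alone in 17. Myl1 made up 85.9%, 54.7%, 66.1% and 77.3% of alkali light chain UMIs and Myl4 nearly all of the rest. Actn2 made up 67.3%, 69.4%, 74.4% and 92.2% of alpha-actinin UMIs over Actn3, but 12 of 28 (42.9%) at E11.5 and 32 of 78 (41%) at E15.5 without the top cell. Among tropomyosins Tpm2 held 38%, 52%, 60.7% and 65.6% and Tpm1 48.8%, 34.3%, 28.4% and 24.9%. The receptor's adult epsilon subunit Chrne had 0 UMIs in Myog-high cells.

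**Figure D3:**
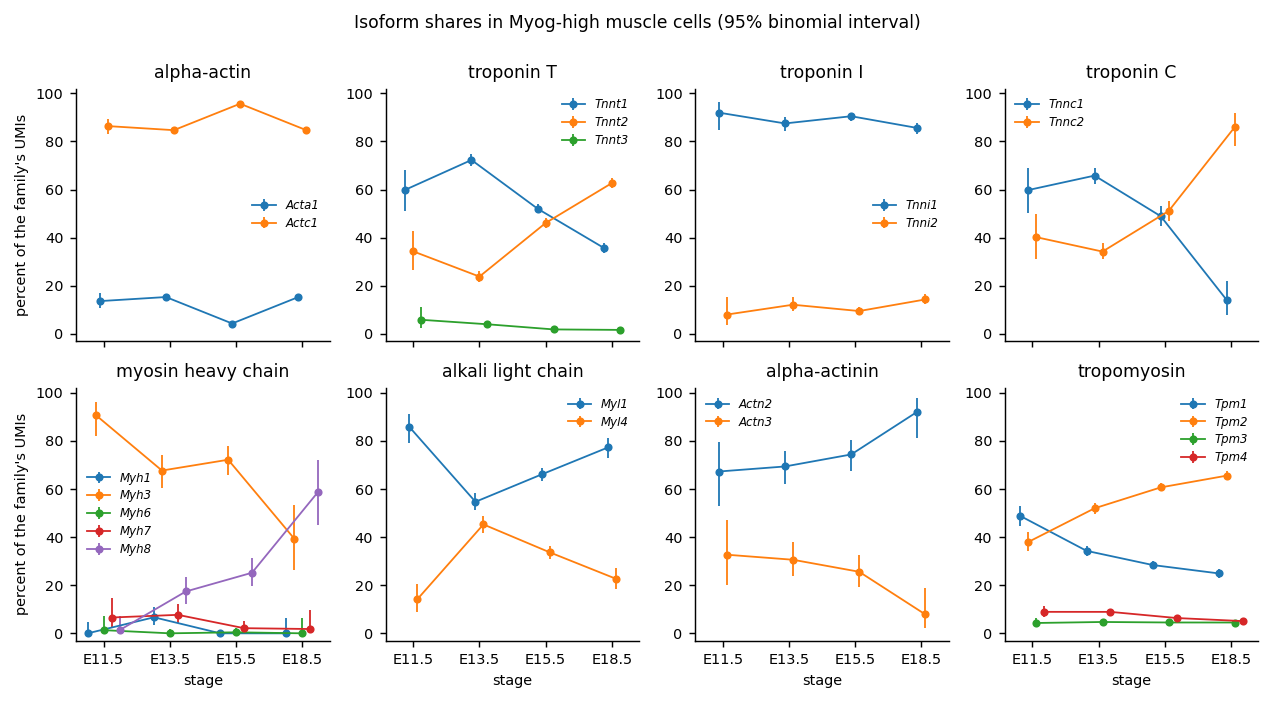
Percent of a gene family's UMIs from each isoform in Myog-high muscle cells by stage, with 95% binomial intervals that cover counting error only; isoforms under 1% at all stages are not drawn. Tnnt2 reaches 62.7% of troponin T and Myh8 58.9% of myosin heavy chain at E18.5, where Tnnc1 is at 13.9% of troponin C.

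The members differed in how unevenly Myog-high cells held them, with no sharp line between even and uneven. The highest 10% of cells (4 of 37, 8 of 74 and 13 of 130, ranked for each gene) held 27.8% to 36.4% of Actc1 UMIs, and at most 46% of those of Tnnt1, Tnnt2, Tpm2, Ttn, Neb, Atp2a1 and Chrna1. The same 10% held 97.9%, 95.7% and 70.6% of Acta1 UMIs at the last 3 stages, and 95% and 93.7% of Mybph UMIs at E13.5 and E15.5. Tnnc1 had 93.6% and 91.2% of its UMIs in those cells at E13.5 and E15.5. At E18.5 Atp2a1 and Mylpf were each in 53 of 130 cells, with 45.6% and 72.7% of their UMIs in the highest 10%. The intervals above are too narrow for genes held so unevenly.

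A single E15.5 cell carried much of the E15.5 totals. It had 70242 UMIs, the most of any muscle cell, with 280 Myog UMIs and 4402 UMIs of the listed genes, 25.2% of those of all 74 Myog-high cells. It held 83.5% of Acta1, 81.1% of Mybph, 76.1% of Actn2, 73% of Tnnc2, 67.7% of Tnnc1, 60.4% of Myh3 and 46.3% of Mylpf UMIs. Without it Acta1 stood at 38 CPM instead of 217, Tnnc1 at 78.4 instead of 229, Tnnc2 at 68.5 instead of 240 and Myh3 at 55.3 instead of 132. The genes held more evenly moved little: Actc1 was at 4285 CPM instead of 4837, Tnnt2 at 885 instead of 946 and Chrna1 at 323 instead of 321. Its Scrublet doublet score was at the 81.3rd percentile of its library.

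Genes held more and less evenly were linked across cells, as a description. Summing 8 more evenly held genes (Actc1, Tnnt1, Tnnt2, Tpm2, Ttn, Neb, Atp2a1 and Chrna1) and 10 less evenly held ones (Acta1, Tnnt3, Tnnc1, Tnnc2, Actn2, Mybph, Mylpf, Myl1, Myl4 and Myh3), groups formed after their values were seen, gave Spearman correlations of CPM of 0.77, 0.86 and 0.78 over 37, 74 and 130 cells. Myog itself had correlations of 0.67, 0.78 and 0.52 with the first sum and 0.44, 0.65 and 0.35 with the second. These cells share a library and each cell's total, so no p-value is given. Every Myog-high cell at these stages held the first sum, at 866 CPM or more, while 2 of 37, 12 of 74 and 42 of 130 cells had 0 UMIs of the second. Because the sums were formed by how evenly these same cells held the genes, that contrast is built into the grouping. The counts of cells with 0 UMIs were not adjusted for depth, whose median was 18573, 16384 and 8856 UMIs in the same order.

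**Figure D4:**
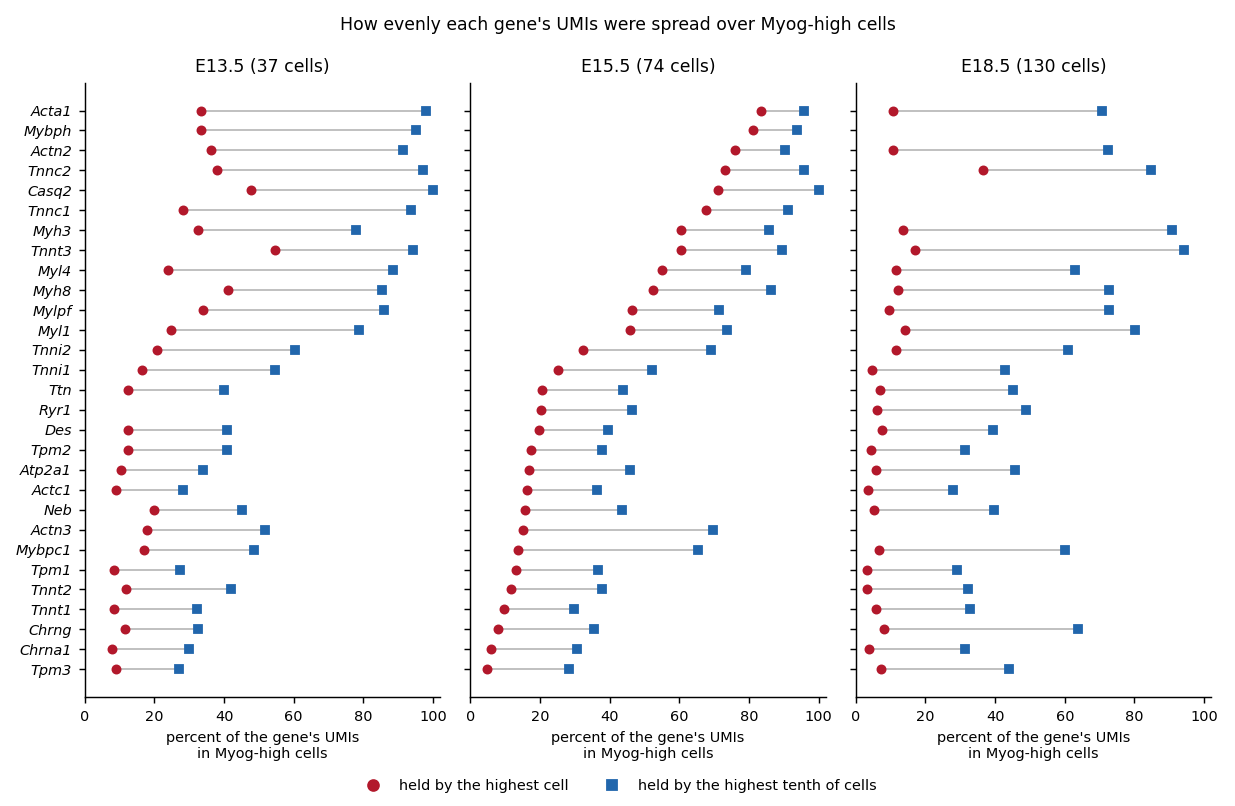
Percent of each member's UMIs in Myog-high cells that came from the single highest cell (circles) and from the highest 10% of cells (squares), at E13.5, E15.5 and E18.5, for members with at least 20 UMIs. At E15.5, Acta1, Mybph, Actn2 and Tnnc2 have over 70% of their UMIs in the highest cell.

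The 6 Myog-high cells at E11.5 already held many members. The highest had 741 listed UMIs among 8503, including 205 of Actc1, 87 of Tpm2, 50 of Tnni1 and 39 of Myh3. A second had 421 listed UMIs among 37464 and also 173 UMIs of the epithelial markers, which the other 5 cells held at 0 to 2. The third had 307 listed UMIs. The remaining 3 cells had 119, 48 and 27 listed UMIs and 0, 2 and 3 of Actc1, with no Acta1, Tnnt2 or Myh3. The E11.5 levels therefore rest on few cells: without the highest cell Actc1 stood at 1772 CPM instead of 3414, Tnnt2 at 121 instead of 406, Tnni1 at 392 instead of 795, Myh3 at 280 instead of 596 and Myl4 at 28 instead of 181.

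Between stages, more members were lower than higher in Myog-high cells. At E15.5 over E13.5, 1 of 31 members measured was higher and 7 lower, where 1.69% and 3.39% of 6395 genes were. At E18.5 over E15.5, 2 of 30 were higher and 9 lower, where 6.61% and 4.63% of 6823 genes were. At E18.5 over E13.5, which reuses both libraries, 2 of 31 were higher and 13 lower, where 7.68% and 7.49% of 6169 genes were. The median member was −0.42, −0.52 and −0.84 on the log2 scale, beside 0.00 for all genes. The median gene itself lay at −0.12, −0.21 and −0.34 log2 in CPM, and the E18.5 library was the shallowest. Markers of other cells also differed: the summed leukocyte markers in Myog-high cells were at 139 CPM at E18.5, 7.02 CPM at E15.5 and 0 at E13.5, and the chondrocyte markers at 207 CPM at E18.5, 414 CPM at E15.5 and 856 CPM at E13.5. Among the largest ratios of other genes, the pericyte marker Rgs5 was 113-fold (19.8 to 4520) and the heat shock gene Hspa1a 62.2-fold (16.8 to 520) higher at E18.5 than at E15.5. Xist, the RNA that coats the inactive X chromosome, was 11.1-fold (8.12 to 15.6) higher at E15.5 than at E13.5. The part of these genes in the members' ratios was not tested.

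Leaving out the cell with the most listed UMIs in each group moved these counts. At E15.5 over E13.5 there were then 13 lower members of 30 and 1 higher, where 3.47% and 1.74% of genes were. At E18.5 over E15.5 there were 4 lower and 3 higher of 29, where 4.4% and 6.53% were. At E18.5 over E13.5 the counts were 11 lower and 2 higher of 31, where 7.16% and 7.78% were.

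With all cells, the 7 lower at E15.5 than at E13.5 were Acta1, Tnnc1, Myh7, Mybpc1, Actn3, Tcap and Casq2. Without the top cells Myh7 had too few UMIs, and 7 more were called lower: Tnnt3, Tnnc2 (4.73-fold), Myh3, Myh8, Myl4, Mybph (7.57-fold) and Actn2 (5.68-fold). The 9 lower at E18.5 than at E15.5 were Tnnc1, Tnnc2, Myh3, Myl1, Myl4, Mybph, Actn2, Actn3 and Casq2. Of these 9, Tnnc2, Myl1, Myl4 and Actn2 were not called without the top cells, and 2 of them turned direction, with E18.5 over E15.5 ratios of 1.31 (0.963 to 1.78) for Tnnc2 and 1.63 (1.01 to 2.65) for Actn2. Casq2 then had too few UMIs, and Tnnt3 was called 2.11-fold higher.

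Several differences were called with and without the top cells. Leaving out 1 cell was a weak check at E13.5, where 3 cells held 14.8%, 14.2% and 12.2% of the Myog-high group's listed UMIs. The highest 4 of 37 cells for each gene then held 93.6% of Tnnc1, 95% of Mybph and 91.3% of Actn2 UMIs. For Tcap and Casq2 they held 100%, against 42% for Tnnt2, 51.8% for Actn3 and 40.1% for Ttn. Tnnt2 was 2.17-fold (1.91 to 2.46) higher at E15.5 than at E13.5, and 2.02-fold without the top cells. That call was lost in plain CPM, by the mean over cells, with cells chosen by Myog per 10000 UMIs and at a ratio of 3, where 0 members were higher. At E18.5 Tnnt2 was 2.98-fold (2.64 to 3.38) higher than at E13.5, and 3.02-fold without them. Ckm was 4.83-fold (2.59 to 9.68) higher at E18.5 than at E15.5, and 4.55-fold without them. Tnnc1 was 52.4-fold (31.5 to 94.2) lower at E18.5 than at E13.5, with 15 UMIs in 130 cells against 551 in 37, and 47.8-fold lower without the top cells. Myh3 was 8.55-fold (5.42 to 14.1) lower and Mybph 17.1-fold (8.99 to 36.6) lower, or 6.79-fold and 16.9-fold without them. Actn3 was 20-fold (7.37 to 75.8) lower at E18.5 than at E13.5, with 4 UMIs against 56. Myl4, Actn2, Tnnc2, Casq2, Myl1, Ttn and Tcap were also lower at E18.5 than at E13.5 with and without the top cells, Casq2 by 7.84-fold and 4.17-fold. Mylpf, 2.48-fold lower at E18.5 than at E13.5, and Tnnt3, 2.16-fold lower, were called only with all cells.

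Acta1 depended on the single E15.5 cell. With all cells it was 3.01-fold (2.59 to 3.5) lower at E15.5 than at E13.5 and 2.83-fold (2.46 to 3.27) higher at E18.5 than at E15.5. Without the top cells these became 12.9-fold lower and 16.3-fold higher. Its E18.5 over E13.5 ratio was 0.947 (0.84 to 1.07) and was not called. Actc1, Tpm1, Tpm2, Tpm3, Tnnt1, Tnni1, Tnni2, Neb, Des, Ryr1, Atp2a1, Chrna1 and Chrng were not called between any of these stages, with or without the top cells.

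Other muscle cells showed the members at low level, and their stage ratios rest on few UMIs. Markers of other cells differed between the same groups. The keratin genes Krt19 and Krt5 were 77.9-fold (20.9 to 654) and 15.6-fold (4.73 to 80.8) lower at E15.5 than at E13.5. The neutrophil genes S100a9 and S100a8 were 77.1-fold (13.5 to 3073) and 47-fold (12.7 to 392) higher at E18.5 than at E15.5. The summed fibroblast markers stood at 640 CPM at E18.5, 549 CPM at E15.5 and 166 CPM at E13.5. Their part in the members' ratios was not tested. At E13.5 over E11.5, where the earlier group was 10 cells, 5 of 10 members measured were higher and 0 lower, where 15.1% and 5.87% of 4361 genes were. The 5 were Actc1 (26.1-fold, 4.5 to 1050), Des (38-fold, 6.64 to 1520), Tnnt1 (5.36-fold), Actn3 (4.28-fold) and Ttn (at least 3.21-fold). Of the Actc1 UMIs at E13.5, 41 of 57 were in 1 cell. At E15.5 over E13.5, 1 of 15 was higher and 2 lower, where 2.63% and 2.99% of 6349 genes were. Actc1 was 2.75-fold (2.07 to 3.71) higher, Myl1 7.79-fold lower and Actn3 3.41-fold lower. At E18.5 over E15.5, 4 of 17 were higher and 1 lower, where 7.81% and 5.13% of 7629 genes were. Tnnt2 was 4.93-fold higher, Ryr1 4.16-fold, Chrna1 2.57-fold and Mybpc1 2.54-fold, and Ttn was 2.62-fold lower. At E18.5 over E13.5, 4 of 18 were higher and 5 lower, where 8.47% and 6.68% of 7098 genes were, among them Tnnt1, 2.61-fold (2.16 to 3.15) lower. Mylpf was 9.38-fold (1.53 to 385) higher, Mybpc1 4.22-fold, Tnnt2 3.53-fold and Tnni2 3-fold, and Actn3 24.9-fold, Myl1 4.74-fold, Tnni1 2.67-fold and Ttn 2.15-fold lower. Without the top cells the counts from E13.5 on were the same, 1 higher and 2 lower, 4 and 1, and 4 and 5, where 2.55% and 3.13%, 7.5% and 5.22%, and 8.15% and 7.05% of genes were.

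Many genes of sarcomere accessory proteins, calcium coupling and energy supply were also higher in Myog-high than in other muscle cells at E15.5, where 7.97% of all genes were higher and 8.8% lower. Of 38 sarcomere accessory genes, 15 were measured, 13 were higher and 1, Fhl1, was lower (2.24-fold). Klhl41, a stabiliser of nebulin and thin filaments, was at least 39.7-fold higher, and Smpx, a costamere protein, 35.5-fold (5.99 to 1440) higher. Of 17 excitation-contraction coupling genes, 7 of 9 measured were higher, led by Srl, the reticulum protein sarcalumenin, at 92.1-fold (16.1 to 3676). Of 11 energy genes, 4 of 5 measured were higher, with Cox6a2, a muscle subunit of cytochrome oxidase, at 53.7-fold (9.26 to 2160). Of 9 neuromuscular junction genes, 2 of 5 measured were higher, Dok7 (7.77-fold) and Chrnd (4.59-fold). None of the 9 non-muscle cytoskeleton genes was higher and Myh10 was 2.41-fold lower. Of 8 smooth muscle genes, Acta2 (4.31-fold) and Smtn (6.08-fold) were higher, and Tagln (14.5-fold) and Myl9 (3.05-fold) lower. At E13.5, where 6.89% of all genes were higher, 11 of 15 accessory, 4 of 7 coupling, 4 of 6 energy, 3 of 5 junction, 0 of 8 cytoskeleton and 2 of 3 smooth muscle genes measured were. At E18.5, where 7.57% were higher and 10.6% lower, 7 of 13 accessory genes were higher and 2 lower, and 5 of 9 coupling, 3 of 5 energy and 2 of 5 junction genes were higher. The cytoskeleton genes then had 0 of 9 higher and 3 lower, and the smooth muscle genes 2 of 5 higher and 1 lower. Over all other genes the largest ratios at E15.5 were those of Gm7325 (Mymx, 606-fold, 108 to 23953), Tmem8c (Mymk, 378-fold, 67.5 to 14971), Myog (168-fold, used to choose the cells), Srl and Sept4 (88.8-fold, 24.2 to 738). Mymk and Mymx encode the pair of membrane proteins that fuse myoblasts. The smallest were those of Chodl (45.5-fold lower, 15.2 to 224), Sncaip (30.2-fold, 5.01 to 1234), Bmp7, a secreted growth factor (29.2-fold, 4.82 to 1193), Alcam, an adhesion molecule (28.1-fold, 4.64 to 1152), and Sh2d3c (27.1-fold, 4.45 to 1111).

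Outside muscle, most members were far below their muscle level until E15.5 and less so at E18.5, and their level differed between cell classes. Over members with at least 20 UMIs in all muscle cells (21, 30, 29 and 27 by stage), the median level outside was 0.547%, 0.56%, 1.36% and 6.52% of the muscle level. Of these members 13, 21, 11 and 0 lay under 1% of it, and 5, 3, 12 and 9 at 1% to 5%. Summed without Tpm1, Tpm3 and Des it was 1.8%, 1.36%, 1.61% and 11.3%. At E18.5 the last value was 4.9% without the 325 cells with pericyte and smooth muscle markers. Cells outside muscle were put into 7 classes by the marker genes with the most UMIs, at least 5. At E18.5 the summed level ran from 80.4 CPM in 22 neural crest marker cells to 326 CPM in fibroblast-marker and 1509 CPM in pericyte and smooth muscle marker cells, against 4450 CPM in muscle. Tpm2, a tropomyosin that stayed in these sums, made up most of the 1509 CPM, and its level there is given below. Mylpf, Actc1 and Acta1 stood far below muscle in the 3 largest classes at E13.5. Mylpf was at 6.61 CPM in chondrocyte-marker cells, 8.66 CPM in epithelial-marker cells and 9.4 CPM in fibroblast-marker cells, against 763 CPM in muscle. Actc1 was then at 3.69, 2.53 and 6.37 CPM in these classes, against 2221 CPM in muscle, and Acta1 at 1.6, 0.722 and 1.52 CPM, against 392 CPM. After thinning each cell to 3000 UMIs, Mylpf was found in 2.17%, 2.12% and 3.09% of cells of these classes and in 23.9% of muscle cells; without thinning the shares were 8.62%, 10.2%, 6.65% and 42.3%. The median depths of the 3 classes were 12313, 11398 and 7005 UMIs, and no E13.5 cell was too shallow to thin.

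**Figure D5:**
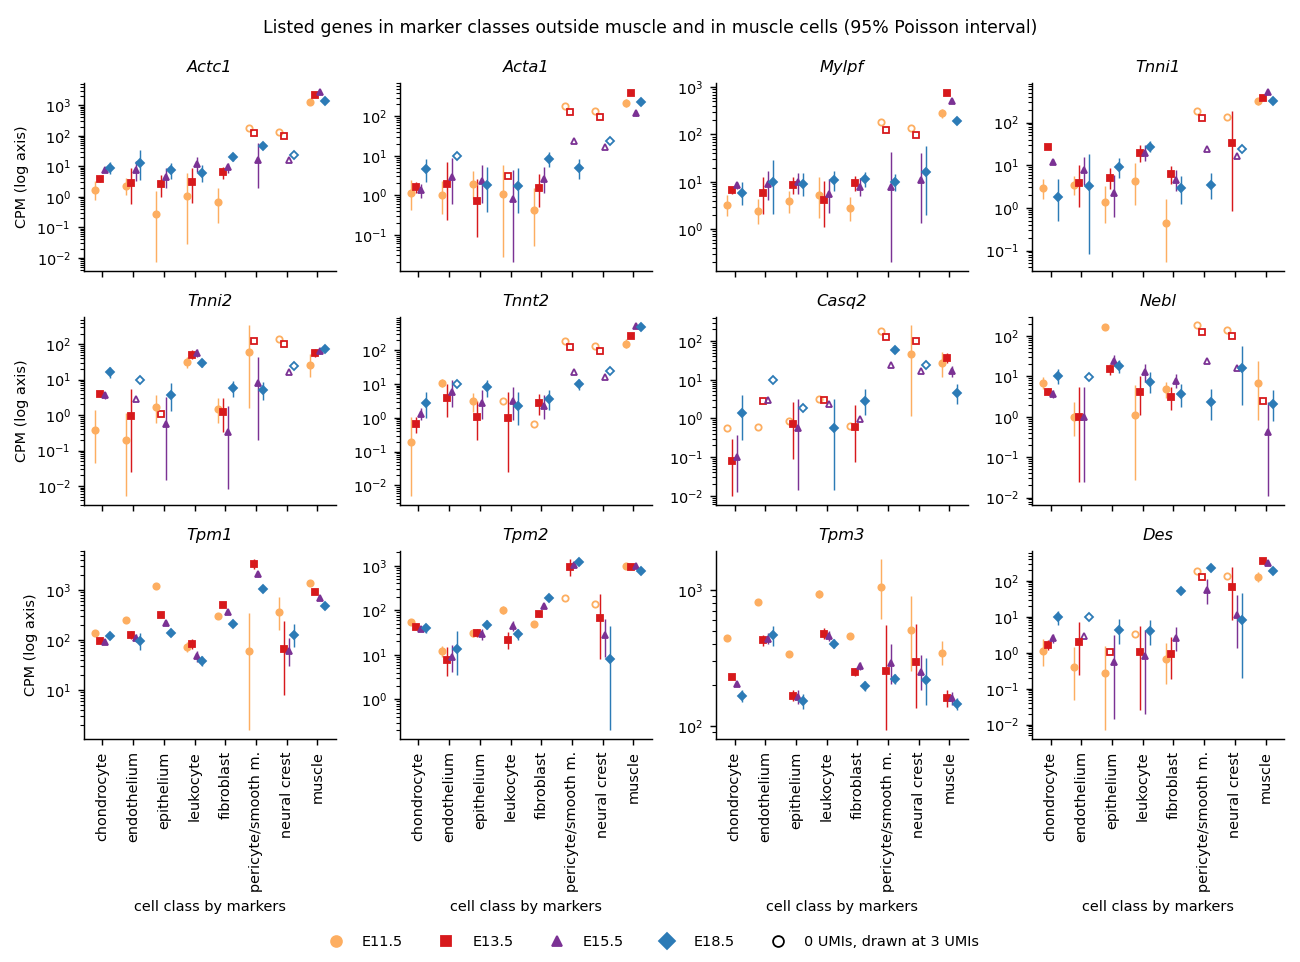
Level of 12 members in CPM (log axis) in 7 classes of cells outside muscle and in all muscle cells, by stage, with 95% Poisson intervals; open symbols at 3 UMIs stand for 0 UMIs. Acta1, Actc1 and Mylpf lie far below muscle in the large classes, while Tpm3, Nebl and Tnni2 do not follow that order.

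Other members differed widely between classes. Tpm3, a tropomyosin of many cell types, was at 145% to 158% of the muscle level in all cells outside muscle together, over the 4 stages. Tnni2 was at 31.3, 50.9, 56.7 and 30.1 CPM in leukocyte-marker cells over the 4 stages, against 26.8, 57.8, 63.7 and 71.7 CPM in muscle. In chondrocyte-marker cells Tnni2 was at 0.379, 3.97, 3.63 and 16 CPM. Tnni1 was at 26.8 CPM in chondrocyte-marker cells at E13.5, with 669 UMIs in 21% of cells (4.67% when thinned). It was then at 5.05 CPM in epithelial-marker cells, in 5.93% of cells (1.27% thinned), and at 6.06 CPM in fibroblast-marker cells. Nebl had its highest level in epithelial-marker cells, 167 CPM at E11.5 in 38.9% of cells (27.9% thinned), against 6.71 CPM in muscle. In endothelial-marker cells Nebl was at 1.01 CPM, in 1.25% of cells (0.25% thinned), at median depths of 9172 UMIs in epithelial-marker and 11060 UMIs in endothelial-marker cells. Casq2 was at 59 CPM in pericyte and smooth muscle marker cells at E18.5, with 154 UMIs in 20.3% of cells (13.3% thinned, 16 of 325 cells being too shallow), against 4.57 CPM in muscle. Epithelial-marker cells, of like median depth (7139 UMIs, against 7700 UMIs in the pericyte and smooth muscle marker cells), held no UMI of Casq2. The pericyte and smooth muscle marker cells also held Tpm2 at 1227 CPM, Tpm1 at 1072 CPM and Des at 229 CPM, against 753, 493 and 188 CPM in all muscle cells. Tpm1 was at 1195 CPM in epithelial-marker cells at E11.5, against 1385 CPM in muscle.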

How the data were processed

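Droplet single-cell libraries of mouse hindlimb were analysed, 1 per stage. The deposited matrices hold counts of UMIs per gene and barcode; the submitters' processing notes name Cell Ranger, Seurat 2.3.4 and mm10. The sources used here do not say how reads matching several genes were counted. Barcodes with fewer than 200 genes or over 10% mitochondrial UMIs were removed. Scrublet called 0.312% of barcodes as doublets, and these were removed. That is too few for the calls to have worked, so most doublets may remain. Leaving out the 3% with the highest scores was an alternative. Cells were grouped by the Myog and progenitor thresholds. Counts were summed per group and divided by the total without globin genes (CPM). Ratios carry exact conditional binomial intervals, levels exact Poisson intervals and shares Clopper-Pearson intervals, all at 95%, and 3 UMIs set the floor for 0. Calls are by size, with no test. The ratio calculation was tested on simulated data in which all UMIs were independent. That setting lacks the uneven holding of genes by single cells described above, so it does not check the intervals for such genes. The listed genes and cell rules, and the other gene lists, were chosen with earlier results of these data known. All 45 listed genes are accounted for; of other genes, the 5 largest and 5 smallest ratios at E15.5 are named, and a few marker genes among the largest stage ratios, chosen after their values were seen. Python 3.11.15, numpy 2.4.6, scipy 1.17.1, pandas 2.3.3 and scanpy 1.11.5 were used. Promoters are from RefSeq tables of GRCm38.p6.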

Additional observations from a re-analysis of the deposited data

How the results depend on the processing

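Of the counts of genes called, 161 stayed within 1.5 times the reported count under an alternative and 31 did not; the higher counts in Myog-high over other muscle cells were never among the 31. Most of the 31 are small counts, and the cause was not tested. With Myog of at least 3, 1 gene was lower in other muscle cells at E15.5 than at E13.5, likewise 1 without Msc, 1 with at least 4 progenitor UMIs and 0 with at least 50 UMIs. For genes lower in Myog-high than in other muscle cells at E18.5, Myog of at least 10 gave 1 and plain CPM 2. For other muscle cells at E18.5 over E15.5, lower genes numbered 2 with Myog of at least 10, with 5 Myog UMIs per 10000, with 4 progenitor UMIs and in plain CPM, 4 with no minimum and 0 at a ratio of 3, where 2 were higher. For Myog-high cells at E15.5 over E13.5, 0 were higher with Myog per 10000, in plain CPM, by the mean over cells and at a ratio of 3, and 2 with no minimum; 11 were lower with Myog per 10000, 13 by the mean over cells, 4 at a ratio of 3 and 13 without the top cell. At E18.5 over E15.5, 4 were lower without the top cell and 1 was higher at a ratio of 3. For other muscle cells at E15.5 over E13.5, 0 were higher with Myog per 10000 and at a ratio of 3, and 2 by the mean over cells and with no minimum. At E13.5 over E11.5, 1 was lower in plain CPM and by the mean over cells, and 3 were higher with at least 50 UMIs. Leaving out the top cell left 9 cells at E11.5 and gave no value. Leaving out the 3% highest Scrublet scores, leaving out Msc and asking for at least 4 progenitor UMIs also left under 10 cells there. They gave no value either, so this comparison has no check against doublets. Shares were also averaged over the Myog-high cells with at least 5 UMIs of the family. Actc1 was then 93.4%, 99.1% and 91.1% of alpha-actin from E13.5 to E18.5, and Tnnt2 20.5% and 40.8% of troponin T at E13.5 and E15.5. Tnnc1 was 72.8% and 22.1% of troponin C at E13.5 and E18.5. At E18.5, 101 of 130 Myog-high cells held no troponin C UMI, so the 22.1% rests on few cells. Without the top cell, Actc1 was 87.9% and 99.1% at E13.5 and E15.5, and Tnnc1 53.4% at E15.5. The level outside muscle was 1.46% and 1.75% of that in muscle at E13.5 and E15.5 over all barcodes, 1.66% at E11.5 without high Scrublet scores, 10.8% at E18.5 for cells with no UMI of the muscle regulators, 7.89% for cells with at most 20 listed UMIs, and 1.54% and 4.9% at E15.5 and E18.5 without pericyte and smooth muscle marker cells. Leaving out the top cell or the pericyte and smooth muscle marker cells was chosen after seeing the data. No paired analysis was possible because each stage was 1 library.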
